A study of Mus musculus with 16 samples.

Results

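The clustered histone genes were examined in total RNA of mouse colon organoids, which are epithelial cultures grown from colon crypts. The genes were taken by name: every protein-coding gene of the GENCODE vM21 annotation whose symbol begins with Hist1h, Hist2h, Hist3h or Hist4h, the older mouse names for the genes of the histone clusters. This gave 67 of 54123 genes with a transcript in the tables, namely 6 H1, 18 H2A, 18 H2B, 12 H3 and 13 H4 genes, after 3 pseudogenes with such symbols were left out. The Hist1 cluster on chromosome 13 held 54 of them, chromosome 3 held 10, chromosome 11 held 2 and chromosome 6 held 1.

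RNA-seq of 16 libraries compared 8 groups of 2 libraries each: proximal or distal colon, organoids given Scramble-sgRNA (a control guide) or Cdx2-sgRNA, and a medium with WENR (WENR-plus) or without it (WENR-minus), where WENR stands for Wnt3a, EGF, Noggin and R-spondin 1. The organoids came from 2 female mice of 8 weeks, heterozygous for a Cre-inducible BrafV600E allele and for a Cre-inducible tdTomato reporter, and all groups shared these alleles. No Cre step was described for the organoids used for RNA. Cas9 and the guide were delivered by lentivirus and selected for with blasticidin, and at 4 months of culture the organoids had 2 days of WENR-plus followed by 3 days of either medium. The Cdx2-sgRNA organoids had been grown out from single cells with a frameshift in both alleles, so each line passed through 1 cell, whereas no such step was described for the Scramble-sgRNA organoids. Clonal outgrowth and Cdx2 loss therefore cannot be told apart here. The study's text describes the 2 replicates of a group as organoids of independent mice. The labels number them 1 and 2 and do not say whether a number marks the same mouse in every group.

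The libraries held 12465194 to 18922143 estimated reads, of which 15.4% to 28.0% came from the mitochondrial ribosomal RNAs, and the replicates of each group differed by more than counting noise. Levels are given as CPM, the count of a gene relative to its library's total after TMM scaling, in the order replicate 1 and replicate 2. Cdx2 mRNA, the check of the guide, was at 142 and 127 CPM in proximal Scramble-sgRNA and 29.9 and 33.3 CPM in proximal Cdx2-sgRNA organoids in WENR-plus, and at 203 and 151 against 73.9 and 71.0 CPM in WENR-minus. In the distal organoids it was at 76.8 and 67.9 against 62.3 and 50.2 CPM in WENR-plus and 112 and 110.0 against 126 and 86.1 CPM in WENR-minus, which did not pass the test, and since a frameshift need not lower mRNA this checks nothing there. Markers of the epithelium summed to 4128 to 19795 CPM, while those of fibroblasts, endothelium, muscle and enteric nerves and glia summed to at most 2.66 CPM. Immune markers summed to at most 1.51 CPM except in proximal Cdx2-sgRNA organoids, where the sum reached 20.3 CPM, nearly all of it Csf1r, with Ptprc at or below 0.891 CPM.

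As background, the clustered histone genes make the bulk of the histones that package newly copied DNA. H2A, H2B, H3 and H4 form the core of the nucleosome, and H1 binds the linker DNA beside it. Their transcription and the stability of their mRNAs peak while DNA is being copied. Most of their mRNAs have no intron and no poly(A) tail, and instead end shortly after a conserved stem-loop that is bound by the stem-loop binding protein Slbp. Total RNA libraries such as these retain such mRNAs, which poly(A) selection largely removes. Some clustered genes, Hist1h1c and Hist1h2bc among them, are known to also yield polyadenylated mRNAs in differentiated cells. In the colon, cells at the crypt base divide under Wnt signals and stop dividing as they differentiate.

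The stem-loop is the sequence that marks this group, and it is shown for 7 members with many reads or with a different stem. Each stretch was read from a GENCODE vM21 transcript (GRCm38), 5′ to 3′, and the capitals mark the 2 arms of the stem.
Hist1h1c: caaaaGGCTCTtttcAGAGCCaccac
Hist2h2aa1: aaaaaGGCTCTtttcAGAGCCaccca
Hist2h2ac: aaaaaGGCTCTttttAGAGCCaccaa
Hist1h2bk: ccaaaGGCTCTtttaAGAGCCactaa
Hist1h3b: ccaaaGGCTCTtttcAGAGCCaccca
Hist1h4h: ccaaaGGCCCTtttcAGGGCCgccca
Hist1h4b: caaaaGGTCCTtttcAGGACCactca

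In a search on the transcript strand, the sequence GGCTCTTTTNAGAGCC occurred in transcripts of 33 members (4 H1, 11 H2A, 10 H2B, 8 H3 and 0 H4 genes). The H4 genes carried another stem: GGCCCTTTTNAGGGCC in 9 and GGTCCTTTTNAGGACC in 2. Of all 141767 annotated transcripts, 0.0353% held 1 of the 3 sequences, that is 50 transcripts, 46 of them from 44 members. The other 4 belonged to Gm20634, H2afx, H2bfm and Trim17. In the other 23 members no annotated transcript held any of the 3. For 14 of these the most read annotated transcript ends at the stop codon, so the annotation stops short of any stem-loop.

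The H2A and H2B genes often lie head to head. Within the clusters 12 such pairs were found, each of an H2A and an H2B gene, with 163 to 280 bases between the start sites. The stretch between the starts is printed for 4 pairs that differ in how they responded to the medium (plus strand, GRCm38.p6, from RefSeq promoters, with the right-hand starts of Hist1h2bc and Hist2h2be taken from GENCODE). These pairs were chosen after their values were seen. The capitals mark CCAAT, the octamer ATTTGCAT and TATAAA, or their reverse complements, and no 2 matches share a letter.
Hist1h2ak and Hist1h2bn, chr13:21753913-21754075: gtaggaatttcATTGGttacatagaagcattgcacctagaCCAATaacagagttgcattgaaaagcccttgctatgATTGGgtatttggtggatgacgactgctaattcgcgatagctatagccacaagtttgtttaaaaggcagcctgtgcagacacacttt
Hist1h2ah and Hist1h2bk, chr13:22035644-22035820: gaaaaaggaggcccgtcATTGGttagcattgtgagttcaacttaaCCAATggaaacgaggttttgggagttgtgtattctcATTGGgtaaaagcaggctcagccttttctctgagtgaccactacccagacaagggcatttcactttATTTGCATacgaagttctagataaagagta
Hist1h2ac and Hist1h2bc, chr13:23683960-23684198: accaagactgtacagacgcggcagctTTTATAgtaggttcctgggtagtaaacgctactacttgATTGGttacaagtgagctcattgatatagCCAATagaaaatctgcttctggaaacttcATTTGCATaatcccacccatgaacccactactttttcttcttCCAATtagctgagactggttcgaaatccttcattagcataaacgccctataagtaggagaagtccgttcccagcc
Hist2h2ac and Hist2h2be, chr3:96220881-96221118: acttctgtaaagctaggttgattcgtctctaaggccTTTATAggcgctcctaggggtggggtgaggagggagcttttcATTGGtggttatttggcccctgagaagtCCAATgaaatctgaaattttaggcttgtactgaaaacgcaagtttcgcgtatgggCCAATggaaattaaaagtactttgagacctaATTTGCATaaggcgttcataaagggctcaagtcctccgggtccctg

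RefSeq promoters were at hand for 62 members (63 promoters), and the 250 bases before each start were searched on both strands. The octamer, a letter string known to be bound by POU-domain factors, was found in 7 of 18 H2A and 7 of 17 H2B promoters and in no H1, H3 or H4 promoter, against 1.60% of all 32851 promoters. CCAAT, the string bound by NF-Y, was found in all 18 H2A, all 17 H2B and all 6 H1 promoters, in 8 of 10 H3 and in 3 of 12 H4 promoters, against 33.85% of all. TATAAA was found in 29 of the 63, against 12.4% of all. Because a divergent pair shares its upstream bases, 1 match could be counted for both genes of a pair.

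Together the members received 600463 reads over the 16 libraries, and 6 of them took 54.9% of these. Hist2h2aa1 received 22.7%, and Hist1h1c, Hist2h2ac, Hist1h1d, Hist1h1e and Hist1h2ai followed. Hist2h2aa1 (chr3:96245497-96246082) and Hist2h2ac (chr3:96220361-96220880) are H2A genes of the Hist2 cluster, and Hist1h1c (chr13:23738808-23740367), Hist1h1d (chr13:23553262-23560686) and Hist1h1e (chr13:23620629-23622558) are linker histone genes whose annotated transcripts run 840, 4884 and 1153 bases past the stem-loop (mm10). Per length, as deposited TPM, a length-normalised abundance, Hist2h2aa1 was at 3635 and 3277 and Hist1h1c at 274 and 294 TPM in proximal Scramble-sgRNA organoids in WENR-plus. Hist2h2aa1 has a near-identical copy, Hist2h2aa2, which was listed at 0 reads in every library, so the split between these copies is uncertain. The same holds for Hist1h2ap and Hist1h2ao, for Hist2h3c2 and Hist2h3c1 and, from their reads given below, for Hist1h4m and Hist1h4n. The single-exon transcripts of Hist1h2bq and Hist1h2br are identical, and only that of Hist1h2bq is in the tables, so reads of that sequence from either gene were listed under Hist1h2bq. After the filter on low counts 61 members were tested. The other 6 were Hist1h1t and Hist1h2aa, testis histone genes with 2 and 3 reads in all, Hist1h2ba, Hist1h2ao and Hist2h2aa2 with 0, and Hist3h2ba with 27.

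The summed level of the clustered histone genes was highest in Scramble-sgRNA organoids in WENR-plus and lowest in distal Cdx2-sgRNA organoids in WENR-minus. In the proximal Scramble-sgRNA organoids it was 4051 and 4091 CPM in WENR-plus and 1296 and 1929 CPM in WENR-minus. The proximal Cdx2-sgRNA organoids stood at 1817 and 1874 CPM in WENR-plus and 1347 and 2253 CPM in WENR-minus, so that the media overlapped. By replicate number, replicate 1 was lower and replicate 2 higher in WENR-minus there. Distal Scramble-sgRNA organoids went from 3348 and 2912 CPM in WENR-plus to 1124 and 1355 CPM in WENR-minus, and distal Cdx2-sgRNA organoids from 1883 and 2701 to 862 and 1045 CPM. The fold between the media was 2.52 in distal Scramble-sgRNA and 2.40 in distal Cdx2-sgRNA organoids by CPM, and 3.98 and 5.67 by deposited TPM, so that the order of these organoids differs between the scales. The media did not overlap in 3 of the 4 kinds of organoid, and the proximal Cdx2-sgRNA organoids were the exception. Lower levels in these bulk samples can come from fewer cells that copy DNA or from less histone mRNA in each, and these cannot be told apart. As a share of reads before scaling, the clustered histone genes took 0.530% and 0.491% in proximal Scramble-sgRNA organoids in WENR-plus, and 0.0601% and 0.0681% in distal Cdx2-sgRNA organoids in WENR-minus.

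**Figure D1:**
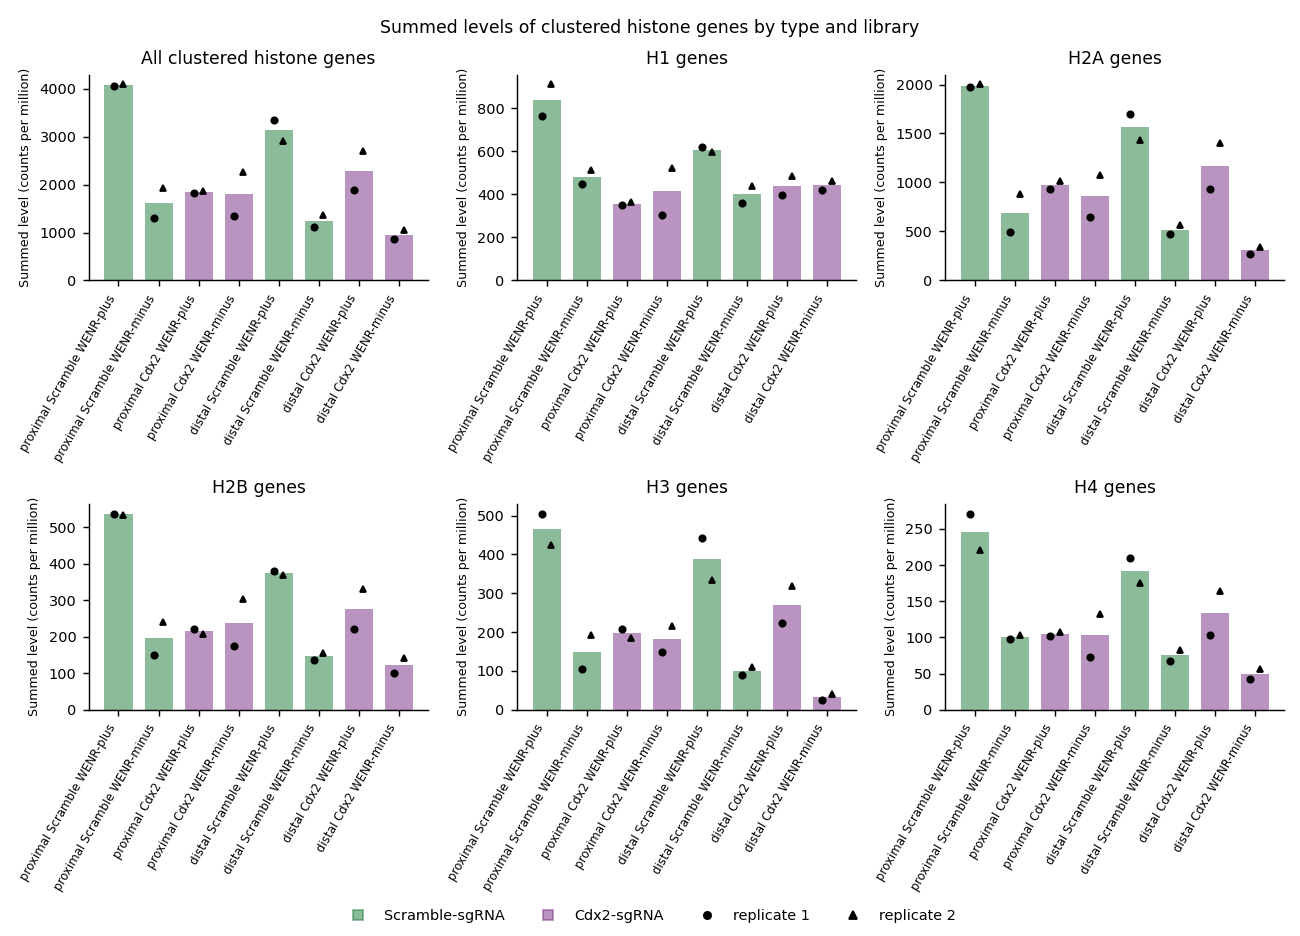
Summed level of the clustered histone genes, all together and by type, in CPM after TMM scaling. Bars are means of 2 libraries and points are the libraries; the H3 sum in distal Cdx2-sgRNA organoids in WENR-minus (25.3 and 39.3 CPM) is the lowest of the 8 groups, while the H1 sum there (418 and 464 CPM) is not.

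The first comparison asked how the members differ between WENR-plus and WENR-minus. A gene was called where edgeR's quasi-likelihood test gave a Benjamini-Hochberg adjusted p under 0.05 over all 15289 genes tested and the log2 fold change exceeded 1 in size. Where a library was left out, here and below, its group kept 1 library, so the spread came from the other groups. In proximal Scramble-sgRNA organoids 37 of the 61 members tested were called higher in WENR-plus and 0 lower, against 17.0% of all genes called (8.24% higher and 8.73% lower), and the median log2 fold change of the members was 1.56 (0.06 for all genes). Without replicate 1 of proximal Scramble-sgRNA WENR-minus the count fell to 14, and without replicate 1 of proximal Scramble-sgRNA WENR-plus to 21. In distal Scramble-sgRNA organoids 45 were higher and 0 lower, against 26.4% of all genes called (14.2% higher and 12.2% lower), with a median of 1.80 (0.11 for all genes). In the absence of replicate 1 of distal Scramble-sgRNA WENR-minus 27 were called. In distal Cdx2-sgRNA organoids 46 were higher and 1 lower, against 33.1% of all genes called (18.1% higher and 14.9% lower), with a median of 2.44, or 2.34 with members at the floor of 3 reads set to their bound (0.10 for all genes). In proximal Cdx2-sgRNA organoids 0 members were higher and 1 was lower, against 6.40% of all genes called (2.98% higher and 3.42% lower), and the median was 0.05 (0.03 for all genes). There, 2 members had an unadjusted p under 0.05, and DESeq2 also called 1. Without replicate 2 of either medium 0 were called there, and without replicate 1 of WENR-minus 2.

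The comparisons in proximal Scramble-sgRNA, distal Scramble-sgRNA and distal Cdx2-sgRNA organoids share no library. In all 3 of them 36 members were called higher, which was 97.3%, 80.0% and 78.3% of the members called higher in each. Over all genes tested 941 were called higher in all 3, which was 74.7%, 43.4% and 33.9% of the genes called higher in each. A total of 47 members were called higher in at least 1 of the 3, and 14 in none.

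**Figure D2:**
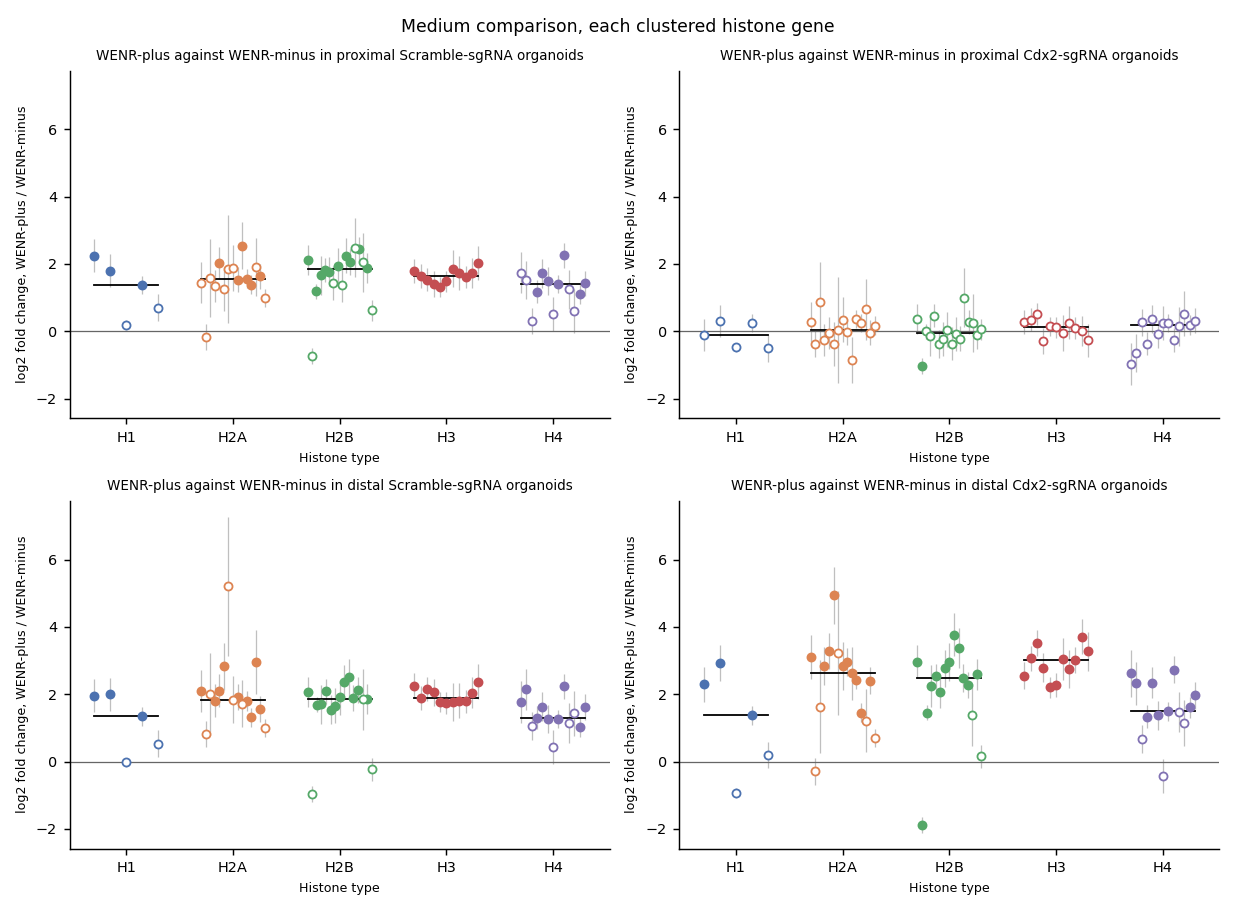
log2 fold change of each tested member between WENR-plus and WENR-minus, by histone type, in the 4 kinds of organoid. Filled points were called, open points were not, grey lines are the SE, black lines are medians of the points drawn, and members at or under 3 reads in a library group are left out; in proximal Cdx2-sgRNA organoids the points lie around 0, with Hist1h2bc (-1.03) as the 1 called.

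Among the H1 genes, 3 of 5 tested were called higher in WENR-plus in each of the 3 responding comparisons, and these were Hist1h1a, Hist1h1b and Hist1h1d. The Hist1h1a replicates stood far apart in proximal Scramble-sgRNA organoids in WENR-plus, at 592 and 173 reads (88.1 and 29.4 TPM). Hist1h1d was at 249 and 327 CPM in WENR-plus and 90.2 and 131 CPM in WENR-minus in proximal Scramble-sgRNA organoids (log2 fold change 1.38, SE 0.27, adjusted p = 0.00367, edgeR). In distal Cdx2-sgRNA organoids its level was 117 and 145 against 44.6 and 57.0 CPM (log2 fold change 1.37, SE 0.28, adjusted p = 0.00170). The media did not overlap in either, and these calls held without each library in turn. Hist1h1d was at 184 and 172 CPM in WENR-plus and 59.7 and 80.9 CPM in WENR-minus in distal Scramble-sgRNA organoids (log2 fold change 1.34, SE 0.27, adjusted p = 0.00254, edgeR).

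Hist1h1c and Hist1h1e, the other H1 genes with many reads, were called in none of the 4 medium comparisons. Hist1h1c was at 219 and 259 CPM in WENR-plus and 205 and 215 CPM in WENR-minus in proximal Scramble-sgRNA organoids, and at 195 and 196 against 192 and 205 CPM in the distal ones. By TPM it was higher in WENR-plus in both, at 274 and 294 against 198 and 233 in proximal and 222 and 228 against 161 and 182 in distal ones. In distal Cdx2-sgRNA organoids its level was 139 and 163 CPM in WENR-plus and 280.2 and 297 CPM in WENR-minus (log2 fold change -0.94, SE 0.14, adjusted p = 2.26e-04, edgeR). This difference passed the p threshold but not the fold threshold, and its direction was opposite to that of Hist1h1a, Hist1h1b and Hist1h1d. By TPM it was smaller, at 167 and 187 in WENR-plus against 228 and 224 in WENR-minus. Hist1h1e was at 99.3 and 117 CPM in WENR-plus and 89.7 and 98.7 CPM in WENR-minus there (log2 fold change 0.20, SE 0.39, adjusted p = 0.704).

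Of 15 H2A genes tested, 6 were called higher in WENR-plus in proximal Scramble-sgRNA, 9 in distal Scramble-sgRNA and 10 in distal Cdx2-sgRNA organoids. Hist2h2aa1, the most read member, was at 816 and 815 CPM in WENR-plus and 236 and 388 CPM in WENR-minus in proximal Scramble-sgRNA organoids (log2 fold change 1.39, SE 0.28, adjusted p = 0.00416, edgeR). In proximal Cdx2-sgRNA organoids it was at 505 and 549.7 against 341 and 551 CPM (log2 fold change 0.24, SE 0.28), and here the media overlapped. Hist2h2ac went from 122 and 184 CPM in WENR-plus to 24.4 and 33.4 CPM in WENR-minus in distal Cdx2-sgRNA organoids (log2 fold change 2.41, SE 0.40, adjusted p = 4.61e-04, edgeR). Hist1h2af was at 101 and 86.4 against 21.4 and 21.9 CPM in distal Scramble-sgRNA organoids and at 50.2 and 61.3 against 2.20 and 9.20 CPM in distal Cdx2-sgRNA organoids. Both were called (log2 fold changes 2.11 and 3.29, SE 0.49 and 0.53), and the media did not overlap. The largest log2 fold change of a called H2A gene was that of Hist1h2ag in distal Cdx2-sgRNA organoids, where it was at 22.2 and 35.0 CPM in WENR-plus and 0 and 1.84 CPM in WENR-minus (log2 fold change 4.94, SE 0.85, adjusted p = 5.79e-04, edgeR). Its WENR-minus libraries held 0 and 22 estimated reads. Hist1h2ah also swung between replicates, with 0 and 459 reads in proximal Scramble-sgRNA organoids in WENR-minus. How reads were split among similar H2A genes was not checked, so values of single genes may be off. Hist1h2ai varied between replicates (14.1 and 78.0 CPM in proximal Cdx2-sgRNA organoids in WENR-minus) and was called in the distal Cdx2-sgRNA organoids alone of the 4 (log2 fold change 2.84, SE 0.72, adjusted p = 0.00722). That call was lost without distal Cdx2-sgRNA WENR-minus replicate 1 (adjusted p = 0.0602), and the other H2A calls given here held without each library in turn.

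The H2B genes gave 10, 13 and 13 of 16 called higher in the same order, and 1 called lower in distal Cdx2-sgRNA organoids. Hist2h2bb was at 124 and 128 CPM in WENR-plus and 21.9 and 46.0 CPM in WENR-minus in proximal Scramble-sgRNA organoids (log2 fold change 1.89, SE 0.45, adjusted p = 0.00907, edgeR). Hist1h2bk was at 34.8 and 49.4 CPM in WENR-plus and 2.12 and 8.70 CPM in WENR-minus in distal Cdx2-sgRNA organoids (log2 fold change 2.96, SE 0.57, adjusted p = 0.00129, edgeR). The media did not overlap in either. The Hist2h2bb call was lost without proximal Scramble-sgRNA WENR-minus replicate 1 (adjusted p = 0.0882). Hist1h2bp was listed with 0 and 3 reads in distal Scramble-sgRNA organoids in WENR-minus and with 0 and 0 in distal Cdx2-sgRNA organoids in WENR-minus. Against a floor of 3 reads per library it was at least 6.61-fold and at least 3.84-fold higher in WENR-plus.

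Hist1h2bc went the other way. It was at 17.8 and 23.8 CPM in WENR-plus and 69.6 and 83.3 CPM in WENR-minus in distal Cdx2-sgRNA organoids (log2 fold change -1.88, SE 0.24, adjusted p = 8.56e-05, edgeR). By TPM the difference was smaller, at 24.1 and 30.8 against 64.3 and 68.6. In proximal Cdx2-sgRNA organoids it was at 29.1 and 16.9 against 43.0 and 50.7 CPM (log2 fold change -1.03, SE 0.23, adjusted p = 0.0167), the 1 member called there. It was lower in WENR-plus in these 2 comparisons, and every WENR-minus library was above every WENR-plus library of its kind also in the Scramble-sgRNA organoids. The log2 fold changes there were -0.74 (SE 0.23, adjusted p = 0.0338) in proximal and -0.97 (SE 0.23, adjusted p = 0.00642, edgeR) in distal organoids, short of the fold threshold. The call in proximal Cdx2-sgRNA organoids was lost without proximal Cdx2-sgRNA WENR-minus replicate 2 (adjusted p = 0.0790) or proximal Cdx2-sgRNA WENR-plus replicate 2 (adjusted p = 0.107), and that in distal Cdx2-sgRNA organoids held without each library in turn. Hist1h2bc (chr13:23684199-23692908, mm10) is annotated with spliced transcripts alone.

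Of the 12 H3 genes tested, 11 were called higher in WENR-plus in each of the 3 responding comparisons, and Hist2h3c1, at 0 reads in 13 of the 16 libraries, was not. Hist2h3b was at 142 and 122 CPM in WENR-plus and 23.8 and 55.6 CPM in WENR-minus in proximal Scramble-sgRNA organoids (log2 fold change 1.73, SE 0.46, adjusted p = 0.0156, edgeR). In distal Cdx2-sgRNA organoids it went from 68.5 and 112 to 4.48 and 9.28 CPM (log2 fold change 3.71, SE 0.51, adjusted p = 1.37e-04). Hist1h3b was at 43.9 and 46.9 CPM in WENR-plus and 4.23 and 6.61 CPM in WENR-minus in the same organoids (log2 fold change 3.06, SE 0.38, adjusted p = 7.31e-05, edgeR). The WENR-plus and WENR-minus libraries did not overlap for either gene. The Hist2h3b call in proximal Scramble-sgRNA organoids was lost without proximal Scramble-sgRNA WENR-minus replicate 1 (adjusted p = 0.123) or proximal Scramble-sgRNA WENR-plus replicate 1 (adjusted p = 0.0684). The lowest H3 level of all groups was that of distal Cdx2-sgRNA organoids in WENR-minus, and the fold between WENR-plus and WENR-minus there was 8.38 for the summed H3 level, against 3.12 in proximal and 3.90 in distal Scramble-sgRNA organoids and 1.08 in proximal Cdx2-sgRNA organoids. By deposited TPM the fold in distal Cdx2-sgRNA organoids was 13.5.

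H4 genes were called higher in 7, 9 and 9 of 13 cases. Hist1h4h was at 75.0 and 53.3 CPM in WENR-plus and 22.7 and 23.1 CPM in WENR-minus in proximal Scramble-sgRNA organoids (log2 fold change 1.49, SE 0.42, adjusted p = 0.0219, edgeR). Hist1h4k was at 15.3 and 11.2 against 2.85 and 2.71 CPM in the same organoids (log2 fold change 2.25, SE 0.37, adjusted p = 0.00141) and at 5.63 and 5.08 against 5.20 and 7.56 CPM in proximal Cdx2-sgRNA organoids (log2 fold change -0.26, SE 0.35, adjusted p = 0.698). The media overlapped for Hist1h4k in the latter and not in the former. The Hist1h4h call was lost without proximal Scramble-sgRNA WENR-minus replicate 1 (adjusted p = 0.114), proximal Scramble-sgRNA WENR-minus replicate 2 (adjusted p = 0.0971) or proximal Scramble-sgRNA WENR-plus replicate 1 (adjusted p = 0.134), whereas that of Hist1h4k in proximal Scramble-sgRNA organoids held without each library in turn. The smallest called difference in distal Scramble-sgRNA organoids was that of Hist2h4 (log2 fold change 1.02, SE 0.30), which was lost without distal Scramble-sgRNA WENR-minus replicate 1 (adjusted p = 0.0517), distal Scramble-sgRNA WENR-minus replicate 2 (adjusted p = 0.0969) or distal Scramble-sgRNA WENR-plus replicate 1 (adjusted p = 0.154). Hist1h4m was called in none of the 4 comparisons, with 23.1 and 38.9 CPM in WENR-plus and 5.95 and 20.1 CPM in WENR-minus in proximal Scramble-sgRNA organoids. In WENR-plus there, its reads rose from 484 to 657 between the replicates while those of Hist1h4n fell from 427 to 115. The same was seen in distal Scramble-sgRNA WENR-plus (312 to 405 and 446 to 97), so the split between these 2 genes is uncertain. Their sum was not tested.

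**Figure D3:**
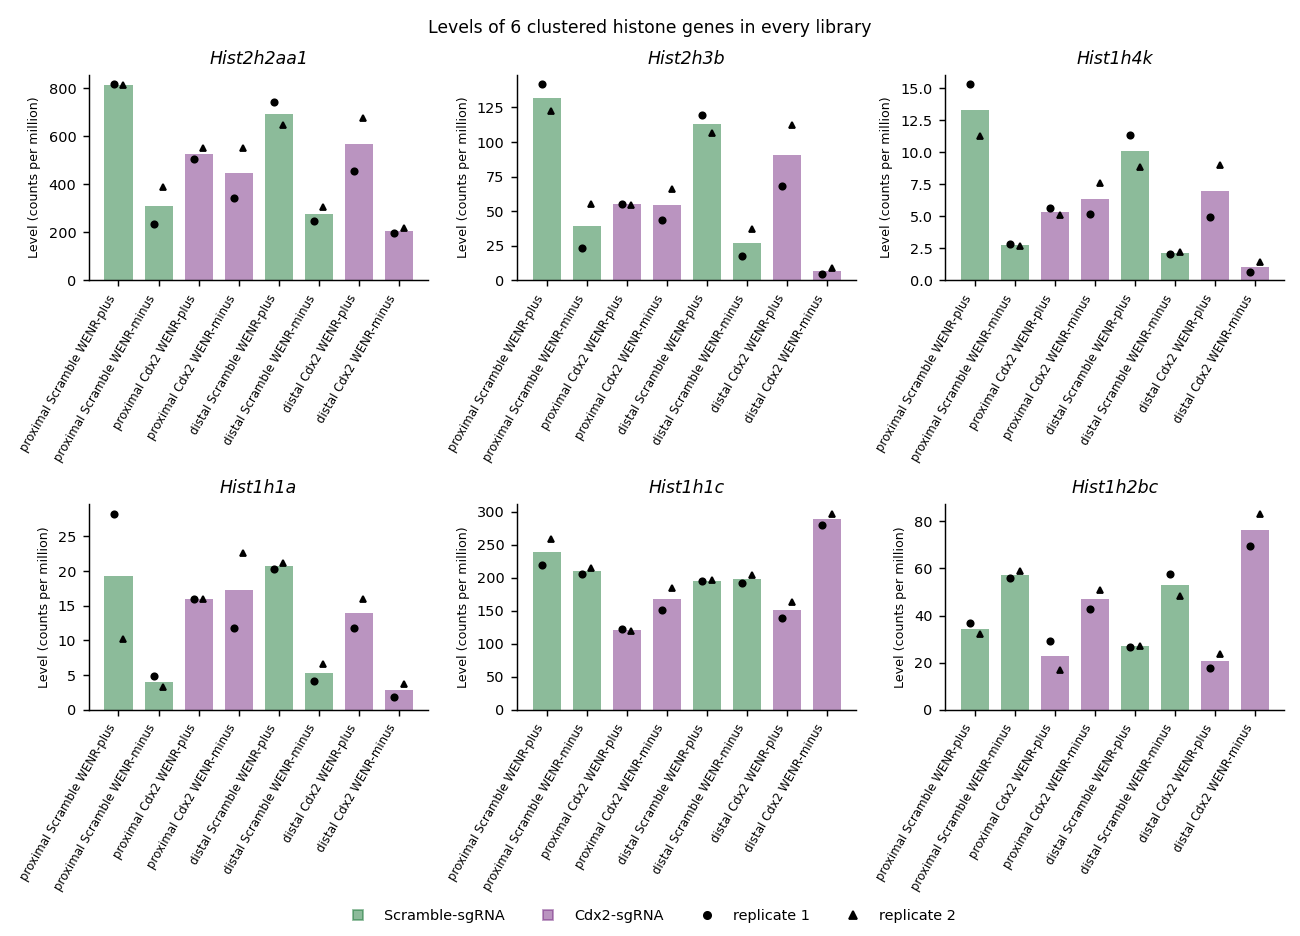
Levels of 6 members in every library, in CPM after TMM scaling; bars are means of 2 libraries and points are the libraries. Hist2h2aa1, Hist2h3b, Hist1h4k and Hist1h1a have their lowest group means in distal Cdx2-sgRNA organoids in WENR-minus, where Hist1h1c (280.2 and 297 CPM) and Hist1h2bc (69.6 and 83.3 CPM) have their highest on this scale; by TPM the highest means were in proximal Scramble-sgRNA organoids, in WENR-plus for Hist1h1c and in WENR-minus for Hist1h2bc.

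The 14 members called higher in no medium comparison were Hist1h1c, Hist1h1e, Hist1h2ac, Hist1h2ad, Hist1h2ah, Hist3h2a, Hist1h2bc, Hist1h2br, Hist2h2be, Hist2h3c1, Hist1h4c, Hist1h4i, Hist1h4m and Hist1h4n. This list was drawn up after the values were seen. For Hist1h4m and Hist1h4n, whose split of reads is uncertain, a place on it does not show a lack of response. Hist1h2ah did not pass although its groups were far apart (18.9 and 38.7 CPM in WENR-plus and 0 and 1.51 CPM in WENR-minus in distal Scramble-sgRNA organoids; adjusted p = 0.0640, edgeR). Hist3h2a had log2 fold changes of 0.99 and 1.00 in Scramble-sgRNA organoids (SE 0.28 in both), at the fold threshold. Hist1h2ac was at 4.16 and 4.38 CPM in WENR-plus and 3.90 and 5.68 CPM in WENR-minus in proximal Scramble-sgRNA organoids, and Hist2h2be at 1.65 and 1.83 against 2.31 and 1.79 CPM in the distal ones. Of these 14, the most read transcript ran over 100 bases past the stem-loop in 7 and was spliced in 2.

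Transcript models differed among the members. By the transcript with the most reads, 21 ended within 100 bases after the stem-loop, 21 ran further past it, 14 ended at the stop codon, 7 held no stem-loop for other reasons and 4 were spliced. Among those tested, 12, 16 and 16 of 19 with a short end were called higher in WENR-plus in proximal Scramble-sgRNA, distal Scramble-sgRNA and distal Cdx2-sgRNA organoids, and 11, 12 and 12 of 19 with a longer end. Of the 12 ending at the stop codon 9, 9 and 11 were called higher, of the 7 with no stem-loop for other reasons 4, 6 and 5, and of the 4 spliced ones 1, 2 and 2. Hist1h2bc has only spliced models, and so has Hist1h2br in the tables, where its single-exon transcript is not listed. Hist1h2be had 42.6% to 96.4% of its reads in spliced models (median 87.7%), and the lowest shares were those of distal Cdx2-sgRNA organoids in WENR-minus, at 57.6% and 42.6%. Its summed level there was 6.85 and 6.77 CPM, against 18.0 and 19.4 CPM in WENR-plus (log2 fold change 1.45, SE 0.23, adjusted p = 3.03e-04, edgeR). Counted over its single-exon transcript alone, a model with no coding sequence and no stem-loop, the direction turned, with a log2 fold change of -1.80 (adjusted p = 0.0338, edgeR). The single-exon transcript was at 1.26 and 0.689 CPM in WENR-plus and 2.90 and 3.89 CPM in WENR-minus, and the most read spliced one at 16.8 and 18.7 against 3.94 and 2.89 CPM. Its gene (chr13:23583670-23621124, mm10) overlaps that of Hist1h1e on the same strand, and the split of reads between them is uncertain.

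The genes of a head-to-head pair, whose shared upstream stretches are printed above, were set side by side. Hist1h2ak and Hist1h2bn, 163 bases apart, were both called higher in WENR-plus in the 3 responding comparisons (log2 fold changes 1.53 and 2.06 in proximal Scramble-sgRNA, 1.91 and 1.89 in distal Scramble-sgRNA, 2.96 and 2.47 in distal Cdx2-sgRNA organoids). Hist1h2ac and Hist1h2bc, with an octamer between them, were called higher in none of the 3. Across the stretches that could be searched, 4 pairs held an octamer. Of the others among these 4, Hist1h2bk was called higher in all 3 comparisons and Hist1h2ah in none, and Hist1h2bg in all 3 and Hist1h2ae in both distal ones. Hist2h2ac and Hist2h2be, also with an octamer, parted: Hist2h2ac had log2 fold changes of 1.63, 1.56 and 2.41, all called, and Hist2h2be had 0.62, -0.23 and 0.16, none called. Single libraries ended some of these calls in Scramble-sgRNA organoids: Hist1h2ak in proximal ones without proximal Scramble-sgRNA WENR-minus replicate 1 (adjusted p = 0.0987) or proximal Scramble-sgRNA WENR-plus replicate 2 (adjusted p = 0.0508), and Hist2h2ac without proximal Scramble-sgRNA WENR-minus replicate 1 (adjusted p = 0.0908) in proximal and without distal Scramble-sgRNA WENR-minus replicate 1 (adjusted p = 0.0610) in distal ones. The difference within a pair was not tested.

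The second comparison asked how the members differ between Cdx2-sgRNA and Scramble-sgRNA organoids. In proximal organoids in WENR-plus 29 of 61 members were called lower on Cdx2 loss and 0 higher, against 15.9% of all genes called (6.93% higher and 8.94% lower), and the median log2 fold change was -1.30 (-0.05 for all genes). The called genes were 2 H1, 5 H2A, 11 H2B, 6 H3 and 5 H4 genes. Leaving out any 1 of the 4 libraries lowered the count: to 13 and 8 without replicate 1 or 2 of the Cdx2-sgRNA organoids, and to 8 and 14 without replicate 1 or 2 of the Scramble-sgRNA organoids. The summed level was 0.453-fold that of the Scramble-sgRNA organoids, and the libraries did not overlap.

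Hist1h4a showed the largest called difference there, at 9.03 and 8.34 CPM in Scramble-sgRNA and 0.812 and 1.53 CPM in Cdx2-sgRNA organoids (log2 fold change -2.88, SE 0.64, adjusted p = 0.00829, edgeR). Hist1h2ai was at 289 and 258 against 38.0 and 79.4 CPM (log2 fold change -2.22, SE 0.70, adjusted p = 0.0382). Hist1h1e, which was not called for the medium, was at 203 and 238 CPM in Scramble-sgRNA and 63.4 and 88.2 CPM in Cdx2-sgRNA organoids (log2 fold change -1.54, SE 0.40, adjusted p = 0.0172, edgeR). Hist1h1c was at 219 and 259 against 122 and 119 CPM, and its log2 fold change of -0.99 (SE 0.14, adjusted p = 5.85e-04) was just within the fold threshold. Hist1h2be was at 31.5 and 24.4 against 12.9 and 8.30 CPM (log2 fold change -1.40, SE 0.22, adjusted p = 0.00114, edgeR), a call that its non-coding single-exon transcript alone did not give (log2 fold change 0.24, adjusted p = 0.809). The guides did not overlap for any of these 5 genes. The Hist1h2ai call was lost without any 1 of the 4 libraries (adjusted p of 0.0660 to 0.180), that of Hist1h1e without proximal Cdx2-sgRNA WENR-plus replicate 1 (adjusted p = 0.0978), proximal Scramble-sgRNA WENR-plus replicate 1 (adjusted p = 0.0589) or proximal Scramble-sgRNA WENR-plus replicate 2 (adjusted p = 0.0919), and that of Hist1h4a without proximal Cdx2-sgRNA WENR-plus replicate 1 (adjusted p = 0.0561). Of the 29 members, 23 were also among the 37 higher in WENR-plus in proximal Scramble-sgRNA organoids, but both comparisons use the same proximal Scramble-sgRNA WENR-plus libraries.

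In proximal organoids in WENR-minus few members were called: 2 were called higher on Cdx2 loss and 0 lower, against 21.2% of all genes called (9.04% higher and 12.1% lower), and the median was 0.09. Hist1h1a was at 4.83 and 3.28 CPM in Scramble-sgRNA and 11.8 and 22.6 CPM in Cdx2-sgRNA organoids (log2 fold change 2.09, SE 0.50, adjusted p = 0.00873, edgeR), and Hist1h4k at 2.85 and 2.71 against 5.20 and 7.56 CPM (log2 fold change 1.20, SE 0.36, adjusted p = 0.0278). Both Cdx2-sgRNA libraries were above both Scramble-sgRNA libraries for these genes. The Cdx2-sgRNA replicates stood apart from each other, with a summed level of 1347 and 2253 CPM. Hist1h1a was no longer called without proximal Cdx2-sgRNA WENR-minus replicate 2 (adjusted p = 0.0731) or proximal Scramble-sgRNA WENR-minus replicate 2 (adjusted p = 0.0696), nor Hist1h4k without proximal Cdx2-sgRNA WENR-minus replicate 2 (adjusted p = 0.168), proximal Scramble-sgRNA WENR-minus replicate 1 (adjusted p = 0.0897) or proximal Scramble-sgRNA WENR-minus replicate 2 (adjusted p = 0.108). Without replicate 1 of the Cdx2-sgRNA organoids 9 members were called, and without replicate 1 or replicate 2 of the Scramble-sgRNA organoids 1.

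**Figure D4:**
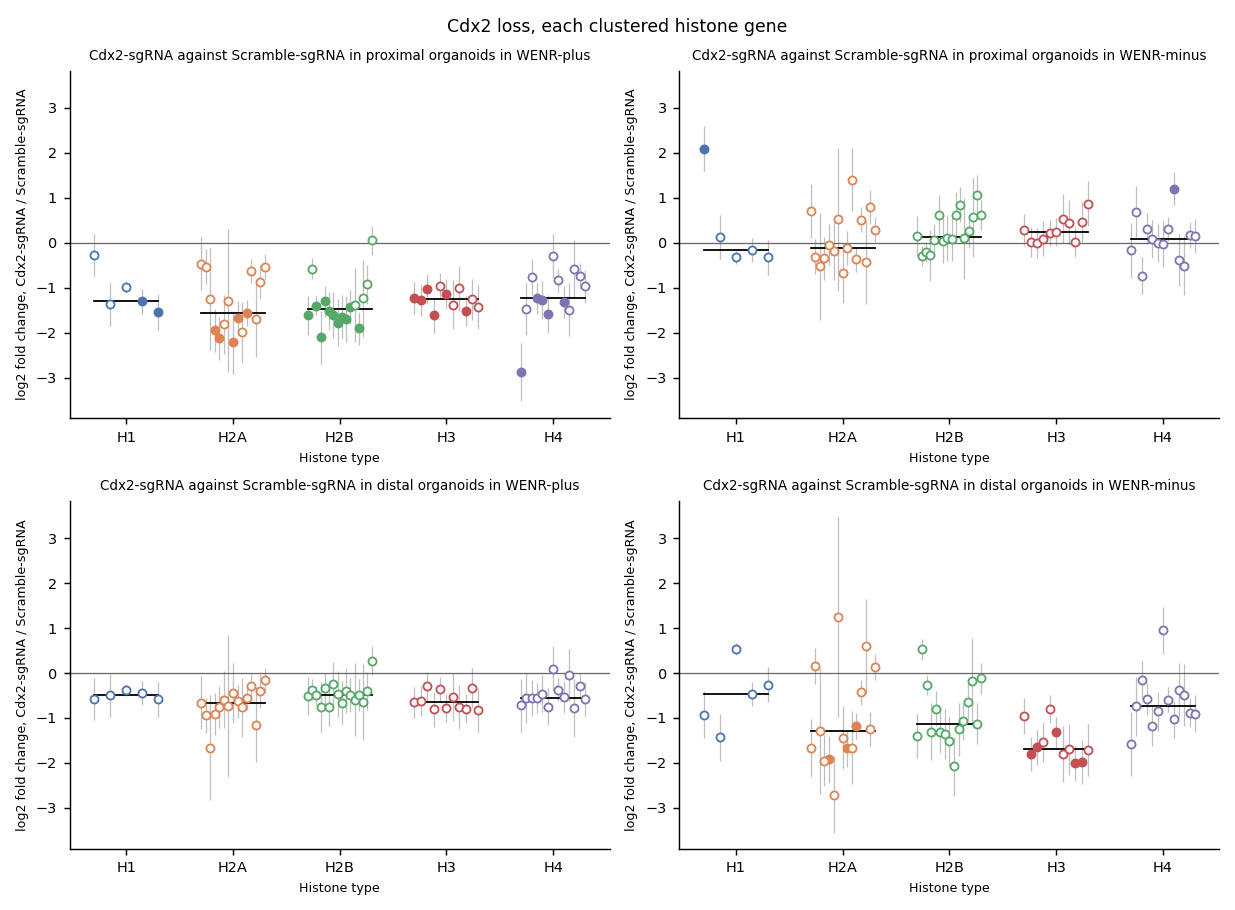
log2 fold change of each tested member between Cdx2-sgRNA and Scramble-sgRNA organoids, by histone type, in proximal and distal organoids and both media. Filled points were called, open points were not, grey lines are the SE, black lines are medians of the points drawn, and members at or under 3 reads in a library group are left out; the medians over the tested members were -1.30, 0.09, -0.55 and -1.17 in the order of the panels.

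In distal organoids in WENR-plus 0 members were called, against 0.262% of all genes (0.137% higher and 0.124% lower). By edgeR 5 members had an unadjusted p under 0.05, DESeq2 also called 0, and 58 of the 61 log2 fold changes were negative, with a median of -0.55. Over all genes tested 7901 of 15289 were negative, with a median of -0.012, and 973 had an unadjusted p under 0.05. The Cdx2-sgRNA replicates differed here too, with summed levels of 1883 and 2701 CPM. In distal organoids in WENR-minus 8 members were called lower and 0 higher, against 5.25% of all genes called (2.24% higher and 3.00% lower), and the median was -1.17, or -1.13 with members at the floor set to their bound (0 for all genes). These 8 were 5 H3 genes (Hist2h3b, Hist1h3b, Hist1h3c, Hist1h3f and Hist1h3i) and 3 H2A genes (Hist1h2af, Hist1h2ak and Hist1h2ap). Hist1h3i was at 3.62 and 6.24 CPM in Scramble-sgRNA and 1.02 and 1.42 CPM in Cdx2-sgRNA organoids (log2 fold change -2.01, SE 0.38, adjusted p = 0.0111, edgeR), and Hist2h3b at 17.6 and 37.1 against 4.48 and 9.28 CPM (log2 fold change -1.99, SE 0.49, adjusted p = 0.0285). The count was 0 without replicate 1 of the Cdx2-sgRNA organoids or replicate 2 of the Scramble-sgRNA organoids, without replicate 1 of the Scramble-sgRNA organoids 3, and without replicate 2 of the Cdx2-sgRNA organoids 10. It was 20 by DESeq2, 28 with no filter on low counts, 15 with the replicate number as a block and 2 in a fit of only the libraries compared. Both the Hist1h3i and the Hist2h3b call were lost without replicate 2 of the Cdx2-sgRNA organoids as well, with adjusted p of 0.0525 and 0.0597. Hist1h1c had a positive log2 fold change here, 0.54 (SE 0.14, adjusted p = 0.0329, edgeR), short of the fold threshold.

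Proximal and distal organoids were also compared directly. With Scramble-sgRNA 0 members were called in WENR-plus and 0 in WENR-minus, against 1.75% of all genes in WENR-plus (0.680% higher and 1.07% lower) and 6.08% in WENR-minus (2.88% higher and 3.20% lower). At an unadjusted p under 0.05 edgeR gave 3 and 12, and DESeq2 called 1 and 0. Without replicate 1 of proximal Scramble-sgRNA WENR-minus 1 member was called in WENR-minus. With Cdx2-sgRNA in WENR-plus 0 were called, against 17.0% of all genes (7.40% higher and 9.57% lower), with 6 at an unadjusted p under 0.05 and 1 called by DESeq2, and 1 was called without replicate 1 of proximal Cdx2-sgRNA WENR-plus. With Cdx2-sgRNA in WENR-minus 42 of 61 were higher in proximal organoids and 0 lower, against 34.6% of all genes called (18.1% higher and 16.5% lower), and the median was 2.01, or 1.90 with members at the floor set to their bound (0.13 for all genes). These were 2 H1, 9 H2A, 12 H2B, 11 H3 and 8 H4 genes. Hist2h2ac was at 93.6 and 213 CPM in proximal and 24.4 and 33.4 CPM in distal organoids (log2 fold change 2.41, SE 0.40, adjusted p = 5.34e-04, edgeR), and Hist1h3i at 6.09 and 9.63 against 1.02 and 1.42 CPM (log2 fold change 2.69, SE 0.38, adjusted p = 2.08e-04). In contrast, Hist1h1c was at 152 and 184 CPM in proximal and 280.2 and 297 CPM in distal organoids (log2 fold change -0.78, SE 0.14, adjusted p = 8.35e-04, edgeR). Leaving out each of the 4 libraries in turn gave 32 to 46 called members.

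Whether these effects differ was tested as a difference of log2 fold changes. The medium effect in proximal organoids was smaller with Cdx2-sgRNA than with Scramble-sgRNA for 3 members, Hist1h2bn (-2.28, SE 0.54, adjusted p = 0.0413), Hist1h2bq (-2.16, SE 0.52, adjusted p = 0.0433) and Hist1h4k (-2.51, SE 0.51, adjusted p = 0.0280, edgeR), against 3.60% of all genes called (1.93% higher and 1.67% lower). For 60 of the 61 members the difference was negative, with a median of -1.52, and 40 had an unadjusted p under 0.05. Over all genes tested 7657 of 15289 differences were negative, with a median of -0.0011, and 3277 had an unadjusted p under 0.05. The count of called members rested on single libraries: it was 16 without replicate 1 of proximal Cdx2-sgRNA WENR-minus, 9 without replicate 2 of proximal Scramble-sgRNA WENR-minus, 1 without replicate 1 of proximal Cdx2-sgRNA WENR-plus, and 0 without any 1 of the other 5. It was 25 by DESeq2, 38 with no filter on low counts, 7 with at least 10 counts in every library, 10 with the replicate number as a block and 0 in a fit of only the libraries compared. The Hist1h2bq value cannot be assigned to that gene alone, since Hist1h2br shares its single-exon transcript. In distal organoids 0 members, and 0 of all genes, differed between the guides in their medium effect, with 6 members at an unadjusted p under 0.05 in edgeR and 0 called by DESeq2.

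The effect of Cdx2 loss in WENR-minus was more positive in proximal than in distal organoids for 10 members, against 14.3% of all genes called (5.17% higher and 9.08% lower). They were Hist1h1a, Hist2h2ac, Hist2h2bb, Hist1h2bn, Hist2h3b, Hist1h3b, Hist2h3c2, Hist1h3f, Hist1h3i and Hist1h4k. The difference for Hist1h1a was 3.01 (SE 0.72, adjusted p = 0.0163) and that for Hist2h3b 2.45 (SE 0.66, adjusted p = 0.0273, edgeR). Without replicate 1 of distal Cdx2-sgRNA WENR-minus or replicate 2 of distal Scramble-sgRNA WENR-minus 0 were called. Without replicate 2 of proximal Cdx2-sgRNA WENR-minus the count was 3, without replicate 1 of proximal Scramble-sgRNA WENR-minus 4, without replicate 1 of proximal Cdx2-sgRNA WENR-minus 17, without replicate 2 of proximal Scramble-sgRNA WENR-minus 18 and without replicate 2 of distal Cdx2-sgRNA WENR-minus 20. The count was 20 by DESeq2, 27 with no filter on low counts and 2 in a fit of only the libraries compared. In WENR-plus 0 members differed, against 4.98% of all genes (1.22% higher and 3.76% lower), with 6 at an unadjusted p under 0.05 in edgeR and 0 called by DESeq2, and 1 without replicate 1 of proximal Cdx2-sgRNA WENR-plus.

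The shares of the types in the clustered histone reads also differed between groups, given here without a test. H1 genes took 18.8% and 22.2% of these reads in proximal Scramble-sgRNA organoids in WENR-plus and 34.5% and 26.6% in WENR-minus. In distal Cdx2-sgRNA organoids the H1 share was 21.0% and 17.9% in WENR-plus and 48.5% and 44.4% in WENR-minus, the highest of the 8 groups. The H3 share there was 2.94% and 3.76%, against 11.9% and 11.8% in WENR-plus, and the lowest H3 share in any other library was 7.89%. The H1 sums of the media overlapped in these organoids by CPM, at 395 and 484 against 418 and 464 CPM, but not by TPM, at 405 and 489 in WENR-plus against 299 and 310.1 TPM in WENR-minus, while the H2A sum was 938 and 1404 against 275 and 343 CPM. By TPM the H1 share was 4.79% and 4.20% in WENR-plus and 18.7% and 15.9% in WENR-minus, in the same direction. Hist1h1c accounted for most of the H1 reads in that last group, at 280.2 and 297 of 418 and 464 CPM.

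**Figure D5:**
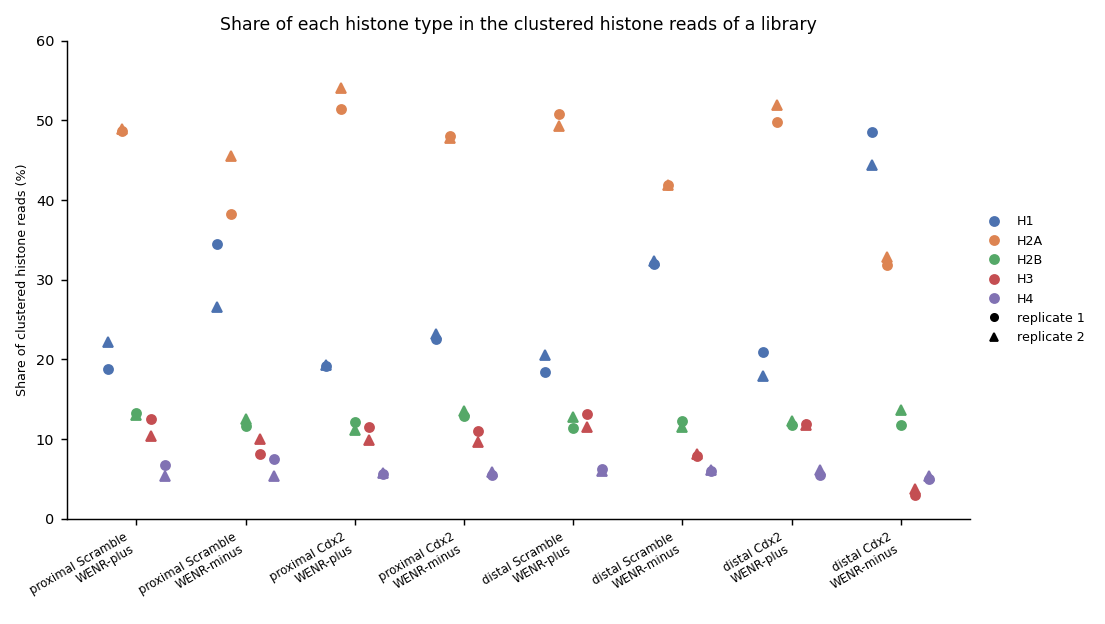
Share of each histone type in the clustered histone reads of each library, in percent, on the CPM scale. H1 takes 48.5% and 44.4% in distal Cdx2-sgRNA organoids in WENR-minus and at most 34.5% in any other library, and H3 takes 2.94% and 3.76% there.

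The other genes of the pathway were taken from lists of histone mRNA processing factors, replication-independent histones, histone chaperones, DNA replication genes and mitosis genes. Of 15 tested genes that process or regulate histone mRNA, 1, 4 and 7 were called higher in WENR-plus in proximal Scramble-sgRNA, distal Scramble-sgRNA and distal Cdx2-sgRNA organoids, and 0 in proximal Cdx2-sgRNA organoids. Of all genes tested 8.24%, 14.2% and 18.1% were called higher in the 3 comparisons and 2.98% in proximal Cdx2-sgRNA organoids, and the counts of each list here are to be read against these shares. Slbp, whose product binds the stem-loop, was at 46.4 and 43.4 CPM in WENR-plus and 22.4 and 26.2 CPM in WENR-minus in proximal Scramble-sgRNA organoids (log2 fold change 0.89, SE 0.13, adjusted p = 0.00101, edgeR). It passed the p threshold but not the fold threshold there and in both kinds of distal organoid (0.83 and 0.62, SE 0.13 in both). Npat, a coactivator that gathers at the histone clusters, had log2 fold changes of 0.50, 0.76 and 0.80 (SE 0.15 in each), and was not called, except in distal Cdx2-sgRNA organoids without replicate 1 of WENR-minus (1.02, adjusted p = 0.00119, edgeR).

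The genes listed as replication-independent histones, which lie outside the clusters and are mostly polyadenylated, summed to 1119 to 1748 CPM over all libraries. Of 9 tested, 4, 2 and 3 were called higher in WENR-plus in the 3 responding comparisons and 0 in proximal Cdx2-sgRNA organoids. H3f3a, which encodes H3.3, was at 413 and 406 CPM in WENR-plus and 582 and 551 CPM in WENR-minus in distal Cdx2-sgRNA organoids (log2 fold change -0.47, SE 0.13), and H3f3b, which encodes the same protein, at 275 and 275 against 309 and 331 CPM. H1f0, a linker histone of resting cells, was at 143 and 148 against 159 and 171 CPM. None of these 3 was called in a medium comparison. H2afx, which is counted in this list but has a stem-loop in 1 transcript, was called higher in WENR-plus in proximal Scramble-sgRNA, distal Scramble-sgRNA and distal Cdx2-sgRNA organoids (log2 fold changes 1.73, 1.78 and 2.28).

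Histone chaperones, which carry histones to DNA, gave 7, 9 and 10 of 17 called higher in WENR-plus in those comparisons and 0 in proximal Cdx2-sgRNA organoids. Nap1l1 was at 377 and 559.9 CPM in WENR-plus and 78.2 and 122 CPM in WENR-minus in distal Scramble-sgRNA organoids (log2 fold change 2.23, SE 0.31, adjusted p = 2.81e-04, edgeR). Of 35 DNA replication genes 32 were called higher in each of the 3 comparisons (1 was lower in distal Cdx2-sgRNA organoids) and 0 in proximal Cdx2-sgRNA organoids, and all 11 mitosis genes were called higher in the 3 comparisons and 0 in proximal Cdx2-sgRNA organoids. Mcm7, of the replicative helicase, was at 114 and 156 CPM in WENR-plus and 19.5 and 23.5 CPM in WENR-minus in distal Cdx2-sgRNA organoids, and Mki67 at 548 and 769 against 53.6 and 112 CPM. On Cdx2 loss in proximal organoids in WENR-plus 2 of the 15 histone mRNA processing genes, 0 of the 9 replication-independent histones, 3 of the 17 chaperones, 14 of the 35 replication genes and 4 of the 11 mitosis genes were called lower, against 8.94% of all genes. In proximal organoids in WENR-minus 8 replication genes and 5 mitosis genes were called higher on Cdx2 loss (1 replication gene was lower), against 9.04% of all genes called higher, where 2 clustered histone genes were.

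The ratio of the summed level of the clustered histone genes to that of the replication list was taken by CPM alone. It was higher in both WENR-minus libraries than in both WENR-plus libraries in the Scramble-sgRNA organoids and the distal Cdx2-sgRNA organoids. By TPM, where the histone folds between these media were larger, the ratio was not taken. It was 2.62 and 2.32 in WENR-plus and 3.43 and 2.99 in WENR-minus in proximal Scramble-sgRNA organoids, and 1.99 and 1.57 against 2.54 and 2.62 in distal ones. In distal Cdx2-sgRNA organoids it was 1.49 and 1.70 against 2.64 and 2.81, and in proximal Cdx2-sgRNA organoids 1.92 and 2.71 against 1.68 and 2.84, where the media overlapped. Without the H1 genes, an alternative added after the values were seen, it was 2.13 and 1.80 against 2.25 and 2.20 in proximal and 1.62 and 1.25 against 1.72 and 1.78 in distal Scramble-sgRNA organoids, still apart. The distal Cdx2-sgRNA organoids were then at 1.17 and 1.39 against 1.36 and 1.56, so that the media overlapped, although WENR-minus was higher within each replicate number. The part that the other lists have in the histone differences was not tested, nor was that of the epithelial markers, whose sum was 5028 and 5053 CPM in WENR-plus and 19033 and 19795 CPM in WENR-minus in distal Cdx2-sgRNA organoids. The epithelial sum was also higher in WENR-minus in proximal Cdx2-sgRNA organoids, at 5419.6 and 4128 against 13234 and 13572 CPM, where the histone sums of the media overlapped. In Scramble-sgRNA organoids it went from 4799.6 and 5026 to 15459 and 14629 CPM in proximal and from 4819 and 4198 to 15570.4 and 13372 CPM in distal ones.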

How the data were processed

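Total RNA of 16 organoid libraries was sequenced on the HiSeq platform after SMARTer Stranded Total RNA preparation. The authors quantified transcripts with Salmon 1.1.0 (mm10, per the processing notes) and deposited estimated counts, TPM values and effective lengths per transcript, from which the estimated counts, rounded after summing by gene, were used for the tests. Of 140748 transcripts, 139864 matched GENCODE vM21 by identifier and 884 did not. The study's annotation was vM23, so names may differ in places. The TPM values deposited by the authors were summed per gene and used for levels per length. The effective lengths deposited by the authors served for the length-scaled counts.

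Genes passing filterByExpr (15289) were tested in edgeR 4.0.16 (R 4.3.3) with TMM scaling, a quasi-likelihood fit over all 8 groups (8 residual degrees of freedom) and Benjamini-Hochberg adjustment over all genes. Genes were called at an adjusted p below 0.05 where the log2 fold change exceeded 1 in size. The fit was tested on simulated data. Sums over members carry no test. DESeq2 1.42.0, RLE scaling, other filters, length-scaled counts, single-exon transcripts, removal of mitochondrial rRNA, a replicate block and leaving out each library were tried. The members and lists were chosen with earlier results of these data known. The rule for naming members took the 3 most read per type and the 2 highest and 2 lowest called per comparison. It also took those without a stem-loop or with 10% or more of reads in spliced transcripts. Not all of these are described above, and those left out include Hist1h2an, Hist2h2ab, Hist1h2bl, Hist1h3e, Hist1h3g, Hist1h3h, Hist1h4d and Hist1h4j. Others named are said to be chosen after their values were seen or are single values of a list. Sequences came from GENCODE vM21 transcripts and RefSeq promoters.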

Additional observations from a re-analysis of the deposited data

Results flagged for a closer look

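For 13 results a test of the difference between the effects in different groups passed the threshold (edgeR, adjusted p under 0.05, log2 difference over 1). The effect of Cdx2 loss in WENR-minus was more positive in proximal than in distal organoids, on the log2 scale, by 3.01 for Hist1h1a (adjusted p = 0.0163), 1.92 for Hist1h2bn, 1.82 for Hist1h3b, 1.56 for Hist1h3f, 2.03 for Hist1h3i, 2.23 for Hist1h4k, 2.04 for Hist2h2ac, 2.20 for Hist2h2bb, 2.45 for Hist2h3b and 2.58 for Hist2h3c2 (highest adjusted p = 0.0428, edgeR). These 10 of 61 members stood against 14.3% of all genes called in this test (5.17% higher and 9.08% lower). Without replicate 1 of distal Cdx2-sgRNA WENR-minus, or replicate 2 of distal Scramble-sgRNA WENR-minus, 0 of these differences were called.

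The medium effect in proximal organoids differed between the guides, as Cdx2-sgRNA minus Scramble-sgRNA, by -2.28 for Hist1h2bn, -2.16 for Hist1h2bq and -2.51 for Hist1h4k (highest adjusted p = 0.0433, edgeR). These 3 of 61 members stood against 3.60% of all genes called (1.93% higher and 1.67% lower). The Hist1h2bq value also holds reads of the identical Hist1h2br transcript, if any. Of the 8 libraries used, leaving out 1 of 5 gave 0 called members.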

How the results depend on the processing

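Over 182 single gene values, 2388 alternatives gave 2106 that kept the direction and the side of the threshold, 204 that lost a call, 76 that gained one and 2 that reversed. Both reversals were Hist1h2be over its single-exon transcript, which has no coding sequence and no stem-loop, at -1.80 for the medium in distal Cdx2-sgRNA organoids and 0.24 for Cdx2 loss in proximal organoids in WENR-plus. Hist1h2bc and Hist1h2br have no single-exon transcript in the tables and gave no value. The causes of these differences were not tested.

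The member counts moved as follows. The medium in proximal Cdx2-sgRNA organoids gave 1 call, 2 with no fold threshold, and 0 with at least 10 counts in every library, only the libraries compared, or single-exon transcripts. Cdx2 loss in proximal organoids in WENR-minus gave 2, then 1 with at least 10 counts, 4 with no filter and 1 with only the libraries compared. In distal organoids Cdx2 loss gave 0 in WENR-plus (1 with no filter) and 8 in WENR-minus (20 by DESeq2, 28 with no filter, 2 with only the libraries compared). Proximal against distal gave 0 with Scramble-sgRNA in WENR-plus (1 by DESeq2) and WENR-minus (3 with no filter). With Cdx2-sgRNA in WENR-plus it gave 0 (2 with no fold threshold, 3 with no filter, and 1 each by DESeq2, RLE scaling, at least 10 counts, and without mitochondrial rRNA). For the difference in the medium effect, proximal organoids gave 3 (25 by DESeq2, 7 with at least 10 counts, 38 with no filter, 0 with only the libraries compared) and distal ones 0 (6 with no filter). For the difference in the effect of Cdx2 loss, WENR-plus gave 0 (7 with no filter, 2 with only the libraries compared) and WENR-minus 10 (20 by DESeq2, 27 with no filter, 2 with only the libraries compared).

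The replicate block, with replicate number as a term, gave 15 in place of 8 calls for Cdx2 loss in distal organoids in WENR-minus and 10 in place of 3 for the difference in the medium effect in proximal organoids. No other count moved by over 1.5 times under it. The labels do not state a pairing of the numbers. This block is 1 shift shared by all groups, so it does not model a pairing of the media within each kind of organoid. No fit with such a pairing was made. Correlations of replicate differences between groups ran from -0.0594 to 0.589 with a median of 0.0729, and 9 of 28 were over 0.1. All 4 between the media of the same organoids were over 0.1, at 0.407 in proximal Scramble-sgRNA, 0.589 in proximal Cdx2-sgRNA, 0.281 in distal Scramble-sgRNA and 0.404 in distal Cdx2-sgRNA organoids.

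Leaving out 1 library at a time gave 14 to 36 calls for the medium in proximal Scramble-sgRNA, 0 to 2 in proximal Cdx2-sgRNA, 27 to 39 in distal Scramble-sgRNA and 40 to 48 in distal Cdx2-sgRNA organoids. For Cdx2 loss it gave 8 to 14 and 1 to 9 in proximal organoids (WENR-plus and WENR-minus), and 0 to 10 in distal ones in WENR-minus. Proximal against distal gave 0 to 1 with Scramble-sgRNA in WENR-minus, 0 to 1 with Cdx2-sgRNA in WENR-plus and 32 to 46 in WENR-minus. The difference in the medium effect in proximal organoids gave 0 to 16, and that in the effect of Cdx2 loss 0 to 1 in WENR-plus and 0 to 20 in WENR-minus.

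Folds of summed levels between the media were larger by deposited TPM in Scramble-sgRNA and distal Cdx2-sgRNA organoids. In proximal Cdx2-sgRNA organoids they were 1.03 by CPM and 1.00 by TPM for all members, and 0.860 and 0.792 for H1. By TPM the folds for all members were 3.98 in distal Scramble-sgRNA and 5.67 in distal Cdx2-sgRNA organoids. For H1 they were 2.07 and 1.47, for H2A 4.04 and 6.15, and for H4 3.54 and 4.45 in the same order, with H4 at 2.97 in proximal Scramble-sgRNA organoids. For H2B they were 3.93 in proximal Scramble-sgRNA, 4.50 in distal Scramble-sgRNA and 6.98 in distal Cdx2-sgRNA organoids, and 3.72 and 5.82 in the distal ones over single-exon transcripts. H3 in distal Cdx2-sgRNA organoids was at 13.5.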
